A study of Homo sapiens with 12 samples.

Results

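Collagens are the main structural proteins of the extracellular matrix that fibroblasts secrete, and the genes described here are those that encode their chains. The members were all protein-coding genes whose symbol is COL, a number, A and a number, which gave 44 of the 48162 gene IDs of each library. By the class of molecule their chains build, 11 were fibrillar, 6 belonged to basement membranes, 5 to type VI collagen and 10 to the FACIT group (fibril-associated collagens with interrupted triple helices), and 12 had other forms (network-forming, anchoring fibril, transmembrane and multiplexin collagens). The rule for members used no measured value, though it was set with earlier results of these data known.

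RNA was sequenced from IMR90, normal diploid human lung fibroblasts, in 12 libraries, 3 in each of 4 groups. The study asked how DOT1L, the methyltransferase of lysine 79 on histone H3, acts on the secretions of senescent cells. RAS/shDOT1L cells received the pBABE vector with the oncogene HRAS G12V together with a pLKO.1 hairpin RNA against DOT1L, RAS cells received the same HRAS vector, DOT1L OE cells overexpressed human wild type DOT1L from the MSCB-hDot1lwt vector, and control cells received empty pBABE. All cells grew in 2% oxygen and were selected for 4 days, with blasticidin at 1 µg/mL for DOT1L OE and puromycin at 3 µg/mL for the other groups. The labels name neither the hairpin sequence used nor a control hairpin for RAS or control, and DOT1L OE differs from control in vector backbone and drug as well as in DOT1L, so these cannot be told apart from the gene itself. Both RAS-bearing groups are senescent per the study, and DOT1L OE cells are not.

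Collagen chains fold in threes into a triple helix. Fibrillar collagens give tissue its tensile strength, FACIT chains decorate the fibril surface, type IV collagen forms the sheet-like network of basement membranes and type VI collagen forms beaded filaments close to cells. Fibroblasts make most of these classes, and senescent fibroblasts are known for a matrix in which collagen synthesis and collagen breakdown are both altered.

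Library totals ran from 16128055 to 19503457 gene counts. DOT1L averaged 11 CPM (counts scaled by the TMM-adjusted library size) in RAS/shDOT1L, 84.5 in RAS, 202 in DOT1L OE and 31.7 in control, and HRAS averaged 275, 503, 79.4 and 85.9 CPM in the same order, so both followed the labels. HRAS itself fell in RAS/shDOT1L against RAS (-0.85 on the log2 scale, edgeR adjusted p = 3.87e-16), and its part in the differences between these groups was not tested. Across all genes, fold changes followed the GC content of the transcript, with a Spearman rho of 0.503 in RAS against control and -0.377 in RAS/shDOT1L against RAS, but 0.13 in DOT1L OE against control and 0.211 in RAS/shDOT1L against control. The labels give no batch, so this trend and the groups cannot be told apart, and values refitted with an offset for the GC trend of each library ("GC offset") are given for every collagen gene whose call they change, and for other large shifts. All 11 fibroblast markers were present in all 4 groups. Sums were 2440 to 2790 CPM in RAS/shDOT1L, 2680 to 2800 in RAS, 3090 to 3230 in DOT1L OE and 3140 to 3270 in control. Most of each sum was VIM, with means of 1600, 1870, 1700 and 1770 CPM in that order, and single markers moved both ways. Relative to control, 3 markers were called higher and 6 lower in RAS, 5 and 5 in DOT1L OE, and 3 and 7 in RAS/shDOT1L. From RAS to RAS/shDOT1L, 4 rose and 4 fell. DCN averaged 671 CPM in control and 285 in RAS, while S100A4 averaged 26.7 in control and 113 in RAS/shDOT1L. The next sums are in the order RAS/shDOT1L, RAS, DOT1L OE and control. The 6 smooth muscle and myofibroblast markers summed to 2920 to 3070, 1340 to 1430, 1030 to 1180 and 3900 to 3910 CPM. The 9 cartilage ones summed to 42.3 to 50.9, 44.5 to 48.4, 95 to 98.3 and 69.5 to 76.1 CPM. The 7 epithelial ones summed to 329 to 353, 104 to 118, 133 to 139 and 259 to 278 CPM. Most of the epithelial sum was KRT8, KRT18 and KRT19, while EPCAM, CDH1 and KRT5 stood at 2.63 CPM or less in every library. KRT18 averaged 220 CPM in RAS/shDOT1L and 111 in control, and KRT19 went the other way, at 48.9 and 115 CPM. Of 6 endothelial markers, 5 were analysed here, and they summed to 25.8 to 31.9 CPM in RAS/shDOT1L, 64.6 to 67.9 in RAS, 134 to 147 in DOT1L OE and 63.9 to 70 in control, most of it TEK, while CDH5 had no count in the last 3 groups. The parts of all these lists in the collagen values were not tested, and in bulk RNA fewer cells of a type and less RNA per cell cannot be told apart. Among defining markers, COL9A1 of cartilage and BGLAP and SP7 of osteoblasts had no count in any library, and the blood markers summed to at most 3.51 CPM in any library.

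Of the 44 genes, 8 reached a mean of 1000 CPM in at least 1 group, 13 reached 100 CPM, 23 reached 10 CPM, and 13 stayed under 1 CPM in every group. A filter on low counts left 33 in at least 1 of the 4 comparisons, 27 in all 4, and 11 in none. The 11 left out were COL2A1, COL4A3, COL6A5, COL6A6, COL9A1, COL20A1, COL21A1, COL22A1, COL23A1, COL26A1 and COL28A1, and COL9A1 was the 1 gene without a count in all 12 libraries. The 3 libraries of a group may be technical repeats, so the p-values below measure the spread between these libraries. Per transcript length (TPM), COL1A1 led in RAS/shDOT1L at 3100 TPM, before COL1A2 at 1350 ± 106 and COL6A2 at 1260 ± 72.4, which did not differ beyond their spread. In RAS the order was COL6A2 at 3360 ± 49 TPM, COL1A1 at 2370 ± 62.5 and COL6A1 at 2210 TPM (SD, n = 3), so a chain of type VI stood above the chains of type I. COL1A1 led again in DOT1L OE at 3540 TPM, before COL6A2 at 1720 ± 38.7 and COL1A2 at 1660 ± 60.4, which did not differ beyond their spread, and in control at 3600 ± 81.4 TPM, before COL1A2 at 2740 and COL6A2 at 1150.

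**Figure D1:**
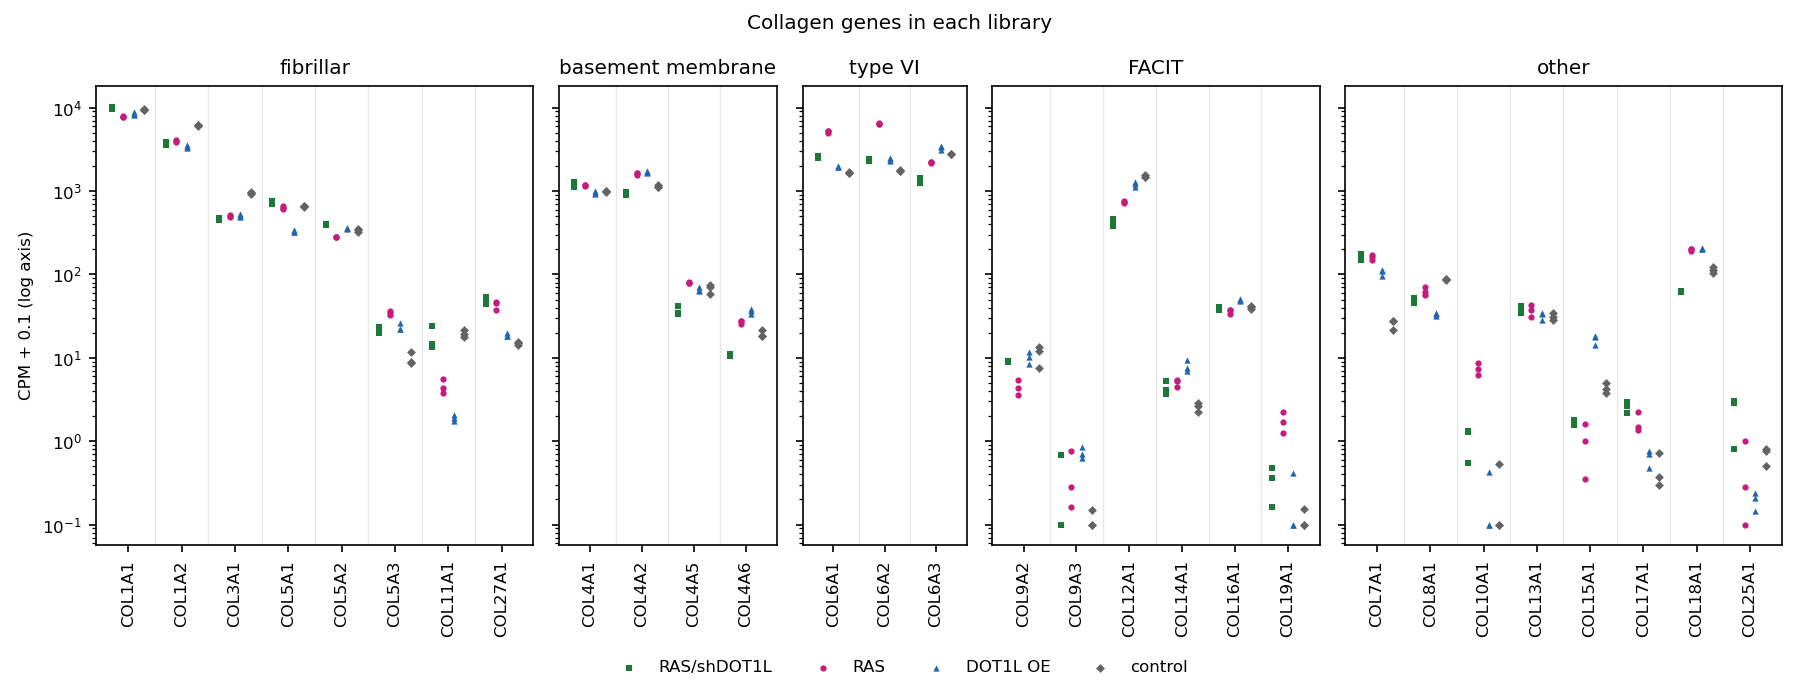
Level of each collagen gene described in full, as CPM + 0.1 on a log axis, with 1 point per library and colours for RAS/shDOT1L, RAS, DOT1L OE and control. COL1A1 lies near the top in all 4 groups, COL6A1 and COL6A2 are highest in RAS, and COL11A1 is lowest in DOT1L OE.

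The collagen genes together took 2.38 ± 0.119% of all counts in RAS/shDOT1L, 2.83 ± 0.0457% in RAS, 2.78 ± 0.0785% in DOT1L OE and 2.89 ± 0.0334% in control (SD, n = 3 each). The makeup behind these totals differed by class. Fibrillar genes held 1.48 ± 0.068%, 1.21 ± 0.0275%, 1.45 ± 0.0454% and 1.83 ± 0.0191% in the same order, lowest in RAS and highest in control. Type VI genes held 0.606 ± 0.0283% in RAS/shDOT1L, 1.25 ± 0.0186% in RAS, 0.843 ± 0.022% in DOT1L OE and 0.645 ± 0.00673% in control. In RAS the 5 type VI genes thus took a larger share of counts than the 11 fibrillar ones. FACIT genes held 0.0458 ± 0.00465%, 0.0714 ± 0.00228%, 0.14 ± 0.00959% and 0.162 ± 0.00518%, and basement membrane genes held 0.213 ± 0.0165%, 0.261 ± 0.00626%, 0.303 ± 0.00988% and 0.231 ± 0.00573%. The remaining genes held 0.0311 ± 0.00215% in RAS/shDOT1L, 0.0427 ± 0.00228% in RAS, 0.0435 ± 0.00179% in DOT1L OE and 0.0275 ± 0.00121% in control. These shares are a description and carry no test, and some orders depend on the denominator. Of the TMM-scaled size, type VI genes held 0.629% in RAS/shDOT1L and 0.62% in control, with overlapping libraries, so that RAS/shDOT1L was no longer below control. As shares of the TMM-scaled size, fibrillar genes held 1.33% in RAS and 1.31% in DOT1L OE, with overlapping libraries, so that RAS was no longer lowest, basement membrane genes 0.288% in RAS and 0.275% in DOT1L OE, so that RAS stood above DOT1L OE, the remaining genes 0.0472% and 0.0395% in the same groups, and all collagen genes 3.12% in RAS and 2.78% in control, so that RAS stood above control.

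**Figure D2:**
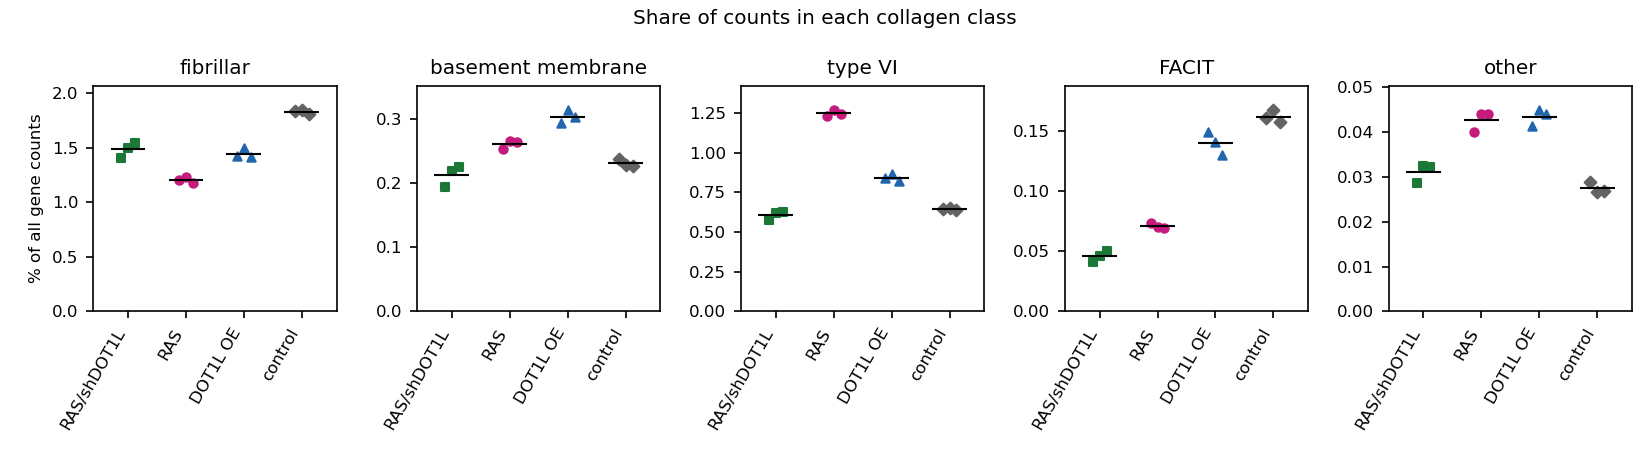
Share of all gene counts of a library, in percent, held by each collagen class, with 1 point per library and lines at the group mean (n = 3) in the order RAS/shDOT1L, RAS, DOT1L OE, control. Type VI stands at 1.25% in RAS against 0.645% in control, and the fibrillar share at 1.21% in RAS against 1.83% in control.

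In RAS against control, 24 of 32 collagen genes tested passed the threshold (75.0%), 14 of them higher and 10 lower, where 64% of all genes did, 31.9% higher and 32% lower. With the GC offset 10 were higher and 13 lower, where 53.2% of all genes passed, 27.3% higher and 26% lower. The median log2 change of the members was 0.209 without the offset and -0.215 with it, against -0.043 over all genes without it. A change of over 1.5-fold was called for 14 members (43.8%), 9 higher and 5 lower, against 26.9% of all genes, 13.4% higher and 13.6% lower. This split was 8 to 7 with the GC offset and 7 to 6 under library-size scaling. The libraries did not overlap for 25 members (78.1%), against 67.7% of all genes. Some members reached the count minimum of the filter in all libraries of only 1 of the groups compared, so the filter itself favoured a difference: COL10A1, COL15A1, COL17A1 and COL19A1 in RAS against control, COL10A1, COL15A1, COL19A1 and COL25A1 in RAS/shDOT1L against RAS, COL9A3 in DOT1L OE against control, and COL17A1 and COL25A1 in RAS/shDOT1L against control. Without them 11 were higher and 9 lower of 28 in RAS against control, 6 and 11 of 27 in RAS/shDOT1L against RAS, 12 and 7 of 28 in DOT1L OE against control, and 11 and 10 of 27 in RAS/shDOT1L against control, and their p-values are not given below. The counts over 1.5-fold and without overlap, here and below, were made with these members left in, so the filter favoured those shares too. COL10A1, COL15A1, COL17A1 and COL19A1 were all called over 1.5-fold in RAS against control. So were COL10A1, COL19A1 and COL25A1 in RAS/shDOT1L against RAS, COL9A3 in DOT1L OE against control and COL17A1 in RAS/shDOT1L against control.

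In RAS/shDOT1L against RAS, 20 of 31 members passed (64.5%), 7 higher and 13 lower, against a background of 52.7%, 26.3% higher and 26.4% lower. With the GC offset 11 were higher and 11 lower, against 46.6%, 22.8% and 23.8% of all genes, and the member median was 0.176 with it and -0.084 without it. Over 1.5-fold, 13 were called (41.9%), 3 higher and 10 lower, against 17%, 8.34% and 8.62%. The libraries did not overlap for 18 members (58.1%), near the 58.7% of all genes.

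In DOT1L OE against control, 20 of 29 members passed (69.0%), 13 higher and 7 lower, against 59.9%, with 29.9% higher and 29.9% lower. The GC offset gave 12 higher and 8 lower, against 59.6%, 29.7% and 29.9%. Over 1.5-fold, 12 were called (41.4%), 7 higher and 5 lower, against 20.8%, 11.2% and 9.58%, and 21 did not overlap (72.4%), against 64.1%. In RAS/shDOT1L against control, 23 of 29 passed (79.3%), 13 higher and 10 lower, against 55.5%, 27.9% and 27.6%. The GC offset gave 10 higher and 12 lower, against 54.9%, 27.9% and 27%. Over 1.5-fold, 12 were called (41.4%), 4 higher and 8 lower, against 19.1%, 9.44% and 9.68%, and 22 did not overlap (75.9%), against 61.8%. These comparisons share libraries: RAS stands in 2 of them and control in 3. Members were not matched to other genes on level, and no test was made of the shares.

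**Figure D3:**
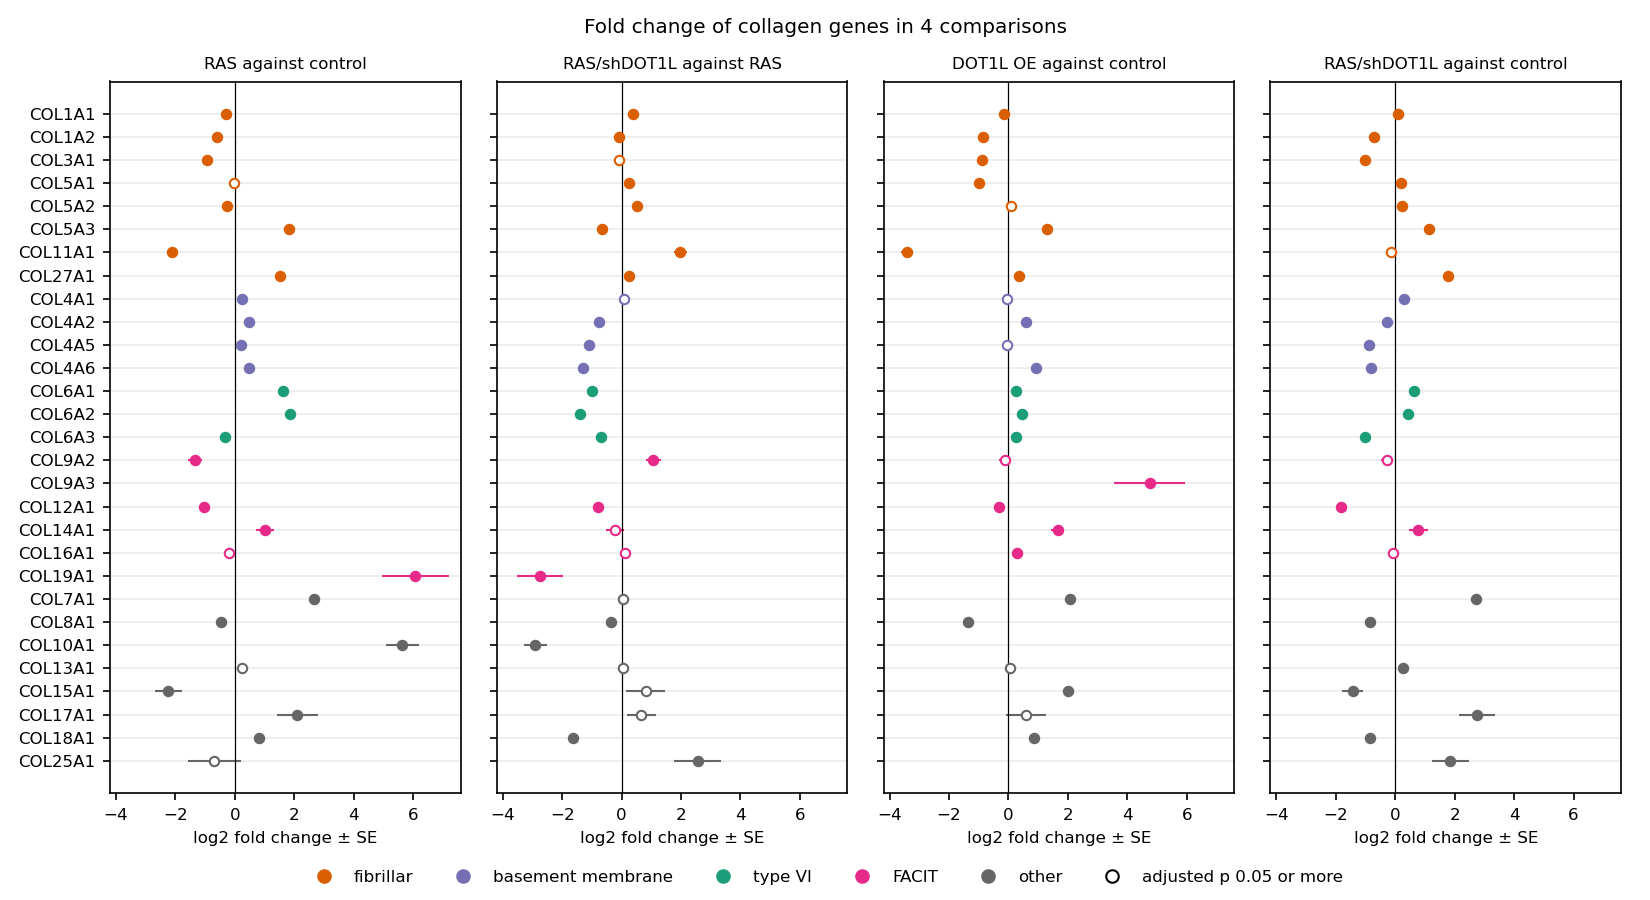
Log2 fold change with its SE in RAS against control, RAS/shDOT1L against RAS, DOT1L OE against control and RAS/shDOT1L against control, coloured by class, for the 29 genes described in full. Open circles did not pass the test. COL7A1 is high in all 3 comparisons with control, while COL6A1 and COL6A2 lie above 0 in RAS against control and below 0 in RAS/shDOT1L against RAS.

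Among the fibrillar genes, RAS cells had lower type I and type III chains than control, and the minor chains COL5A3 and COL27A1 were higher. COL1A1 (ENSG00000108821, chromosome 17, 50184101 to 50201632, minus strand, on GRCh38 as are all coordinates given), the major chain of type I collagen, stood at 9679, 10090 and 10210 CPM in RAS/shDOT1L, 7754, 7924 and 7662 CPM in RAS, 8398, 8800 and 8201 CPM in DOT1L OE, and 9327, 9647 and 9353 CPM in control. No groups overlapped, and RAS was lowest and RAS/shDOT1L highest. COL1A1 was lower in RAS than in control (log2 fold change -0.28 ± 0.02 SE, edgeR adjusted p = 3.77e-14) and higher in RAS/shDOT1L than in RAS (0.38 ± 0.03 SE, edgeR adjusted p = 6.41e-14). The GC offset moved these to -0.83 and 0.74. Its difference between RAS/shDOT1L and control, 0.09, turned to -0.08 with the GC offset and to -0.03 when only library size was scaled, and it lost its call without control replicate 1 or 3. COL1A2 (ENSG00000164692, chromosome 7, 94394895 to 94431227, plus strand), its partner in the type I trimer, stood at 3519, 3744 and 3912 CPM in RAS/shDOT1L, 4032, 4142 and 3900 CPM in RAS, 3318, 3560 and 3374 CPM in DOT1L OE, and 6197, 6158 and 6096 CPM in control. All libraries of the other 3 groups lay below every control library, and RAS/shDOT1L overlapped both RAS and DOT1L OE. COL1A2 was 1.53-fold lower in RAS (-0.61 ± 0.02 SE, edgeR adjusted p = 1.18e-21) and 1.79-fold lower in DOT1L OE (-0.84 ± 0.03 SE, edgeR adjusted p = 8.94e-22) against control. RAS/shDOT1L also had less than control (-0.72 ± 0.03 SE, edgeR adjusted p = 4.3e-17). Between RAS/shDOT1L and RAS it differed by -0.09 (edgeR adjusted p = 0.0228), a call lost without RAS/shDOT1L replicate 1, RAS replicate 1 or RAS replicate 2 and under library-size scaling (-0.02), and turned to 0.08 with the GC offset.

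COL3A1 (ENSG00000168542, chromosome 2, 188974373 to 189012746, plus strand), the chain of type III collagen in distensible tissue, stood at 450, 470 and 475 CPM in RAS/shDOT1L, 488, 514 and 497 CPM in RAS, 494, 531 and 507 CPM in DOT1L OE, and 972, 933 and 940 CPM in control. Control lay above the other groups by nearly the same amount in each. The log2 fold change against control was -1.02 ± 0.04 in RAS/shDOT1L (edgeR adjusted p = 2.56e-18), -0.93 ± 0.04 in RAS (edgeR adjusted p = 2.03e-21) and -0.89 ± 0.04 in DOT1L OE (edgeR adjusted p = 5.7e-19), each with its SE. Between RAS/shDOT1L and RAS it was -0.08 ± 0.05 (edgeR adjusted p = 0.124).

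Type V chains seed and limit the fibrils of type I collagen. COL5A1 stood at 702, 759 and 762 CPM in RAS/shDOT1L, 616, 666 and 626 CPM in RAS, 326, 337 and 321 CPM in DOT1L OE, and 653, 663 and 638 CPM in control. DOT1L OE was alone at the bottom, 1.98-fold lower than control (-0.98 ± 0.04 SE, edgeR adjusted p = 1.22e-19), while RAS overlapped control. RAS/shDOT1L was above RAS (0.24 ± 0.04 SE, edgeR adjusted p = 3.21e-05, and 0.55 with the GC offset). In 2 other comparisons the call itself depended on the scaling. With the GC offset and under library-size scaling, COL5A1 was called lower in RAS than in control (-0.54 and -0.23), and its rise in RAS/shDOT1L over control (0.19) lost its call (0.03 and 0.08). COL5A2 stood at 392, 399 and 395 CPM in RAS/shDOT1L, 283, 283 and 283 CPM in RAS, 357, 362 and 350 CPM in DOT1L OE, and 351, 321 and 344 CPM in control. RAS was lowest with 3 nearly equal libraries, RAS/shDOT1L was highest, and DOT1L OE overlapped control. It was lower in RAS than in control (-0.26 ± 0.04 SE, edgeR adjusted p = 3.54e-06) and higher in RAS/shDOT1L than in RAS (0.50 ± 0.05 SE, edgeR adjusted p = 9.03e-11) and in control (0.23 ± 0.05 SE, edgeR adjusted p = 0.000133).

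COL5A3, a chain of a less common form of type V, stood at 23.3, 21.1 and 19.6 CPM in RAS/shDOT1L, 35.9, 33 and 34.2 CPM in RAS, 21.9, 26.2 and 22.3 CPM in DOT1L OE, and 11.6, 8.68 and 8.7 CPM in control. RAS was highest and control lowest, and RAS/shDOT1L overlapped DOT1L OE. COL5A3 was 3.55-fold higher in RAS (1.83 ± 0.14 SE, edgeR adjusted p = 1.71e-13) and, in DOT1L OE, 2.44-fold higher (1.28 ± 0.13 SE, edgeR adjusted p = 6.28e-10) against control. RAS/shDOT1L also exceeded control (1.15 ± 0.16 SE, edgeR adjusted p = 4.23e-07). The GC offset reduced the change in RAS to 1.23, and the fall in RAS/shDOT1L against RAS (-0.67) to -0.23 (edgeR adjusted p = 0.13), which ended that call.

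COL11A1 (ENSG00000060718, chromosome 1, 102876467 to 103108872, minus strand), the type XI chain best known from cartilage fibrils, stood at 13.5, 14.7 and 24.2 CPM in RAS/shDOT1L, 4.29, 3.69 and 5.49 CPM in RAS, 1.97, 1.63 and 1.78 CPM in DOT1L OE, and 17.4, 19.4 and 21.2 CPM in control. DOT1L OE and RAS lay below the other groups without overlap, and RAS/shDOT1L overlapped control. COL11A1 was 10.7-fold lower in DOT1L OE against control (-3.43 ± 0.18 SE, edgeR adjusted p = 3.31e-17) and 4.31-fold lower in RAS (-2.11 ± 0.18 SE, edgeR adjusted p = 5.88e-12), and 3.94-fold higher in RAS/shDOT1L against RAS (1.98 ± 0.23 SE, edgeR adjusted p = 4.9e-09). In RAS/shDOT1L against control it was -0.14 (edgeR adjusted p = 0.5), but -0.46 and called without RAS/shDOT1L replicate 3, its highest library. COL27A1, a fibrillar chain of cartilage and developing tissue, stood at 44.3, 54.2 and 52.5 CPM in RAS/shDOT1L, 37.2, 46.5 and 45 CPM in RAS, 19.8, 18.1 and 18.4 CPM in DOT1L OE, and 15.6, 14 and 15.1 CPM in control. Both groups with HRAS lay above DOT1L OE, and DOT1L OE above control. COL27A1 was 2.88-fold higher in RAS (1.53 ± 0.12 SE, edgeR adjusted p = 3.47e-13) and 3.4-fold higher in RAS/shDOT1L (1.76 ± 0.11 SE, edgeR adjusted p = 1.26e-13) against control. The GC offset took the RAS value to 0.98. Its smaller differences, 0.25 in RAS/shDOT1L against RAS and 0.34 in DOT1L OE against control, each lost the call when certain single libraries were left out (RAS/shDOT1L 2 or 3, RAS 1 or 3, and DOT1L OE 1 or control 2). The first also lost it with DESeq2 size factors (adjusted p = 0.0512), without the filter (adjusted p = 0.055), in 1 fit over all 4 groups (adjusted p = 0.0664) and in the DESeq2 Wald test (adjusted p = 0.0717), but was 0.60 with the GC offset. The other lost it with the GC offset (0.245, edgeR adjusted p = 0.0786). The other fibrillar genes stood low: COL24A1 at 0.85 to 4.42 CPM and COL11A2 at 0 to 1.09 CPM over all libraries, with no call in any comparison with all libraries in the fit.

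By class, 2 of 10 fibrillar genes tested rose and 5 fell in RAS against control, 5 of 9 rose and 2 fell in RAS/shDOT1L against RAS, 2 of 10 rose and 5 fell in DOT1L OE against control, and 5 of 9 rose and 2 fell in RAS/shDOT1L against control, where 64%, 52.7%, 59.9% and 55.5% of all genes were called in these comparisons. With the GC offset 2 rose and 6 fell, 5 rose and 0 fell, 1 rose and 5 fell, and 3 rose and 3 fell, so the excess of rises in RAS/shDOT1L against control was gone.

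Type IV collagen of the basement membrane is encoded by gene pairs that lie head to head. COL4A1 (ENSG00000187498, chromosome 13, 110148963 to 110307157, minus strand) and COL4A2 (ENSG00000134871, chromosome 13, 110305812 to 110513209, plus strand) start 127 bases apart in RefSeq on opposite strands of chromosome 13. In GENCODE 44 the COL4A4 and COL4A3 starts lie 171 bases apart and those of COL4A6 and COL4A5 341 bases apart. The shared upstream window of the first pair is printed because the changes of its 2 genes differed in DOT1L OE against control and in RAS/shDOT1L against both RAS and control. The window is RefSeq sequence of GRCh38.p14, chr13:110307034-110307333, plus strand, from 250 bases before to 50 after the COL4A2 start. Its capitals mark the bases from the COL4A1 start to the COL4A2 start.
COL4A2: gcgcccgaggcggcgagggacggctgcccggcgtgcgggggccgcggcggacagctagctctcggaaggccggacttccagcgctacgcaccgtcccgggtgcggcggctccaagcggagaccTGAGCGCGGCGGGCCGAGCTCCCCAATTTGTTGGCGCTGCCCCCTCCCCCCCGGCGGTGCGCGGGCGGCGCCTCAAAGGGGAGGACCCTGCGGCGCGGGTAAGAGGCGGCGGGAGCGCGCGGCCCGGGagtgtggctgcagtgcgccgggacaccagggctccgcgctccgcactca
GGGCGG, on either strand, occurs in 45.0% of 35116 promoter windows of this length in RefSeq, in 24 of the 44 windows of 32 members, and 1 time in the window printed above.

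COL4A1 stood at 1109, 1260 and 1285 CPM in RAS/shDOT1L, 1142, 1189 and 1173 CPM in RAS, 928, 994 and 953 CPM in DOT1L OE, and 998, 987 and 993 CPM in control. RAS/shDOT1L and RAS lay above DOT1L OE and control, with overlap within each pair. It was higher in RAS than in control (0.23 ± 0.03 SE, edgeR adjusted p = 4.68e-08), but the GC offset turned this to -0.07 (edgeR adjusted p = 0.044) and library size as the only scaling left 0.04. RAS/shDOT1L exceeded control (0.30 ± 0.04 SE, edgeR adjusted p = 1.1e-06). The GC offset also brought calls of 0.27 in RAS/shDOT1L against RAS and -0.11 in DOT1L OE against control, which were 0.08 and -0.05 and not called in the main fit. The first was also called with library size as the only scaling (0.15) and without RAS/shDOT1L replicate 1 (0.144). COL4A2 stood at 886, 968 and 972 CPM in RAS/shDOT1L, 1540, 1627 and 1639 CPM in RAS, 1635, 1753 and 1688 CPM in DOT1L OE, and 1177, 1126 and 1109 CPM in control. RAS/shDOT1L was below control and RAS and DOT1L OE, which overlapped, above it. COL4A2 was 1.68-fold lower in RAS/shDOT1L against RAS (-0.75 ± 0.04 SE, edgeR adjusted p = 8.25e-17) and, in DOT1L OE, 1.49-fold higher against control (0.58 ± 0.04 SE, edgeR adjusted p = 3.54e-15). In RAS against control it was 0.49, but -0.07 with the GC offset, where it was no longer called (edgeR adjusted p = 0.0803). The offset took its value in RAS/shDOT1L against RAS to -0.37, still called. RAS/shDOT1L was also below control (-0.27 ± 0.04 SE, edgeR adjusted p = 2.39e-06). Within a library the COL4A1 to COL4A2 count ratio was 1.29 ± 0.0361 in RAS/shDOT1L, 0.73 ± 0.013 in RAS, 0.566 ± 0.00176 in DOT1L OE and 0.873 ± 0.0236 in control (SD, n = 3 each). The difference in log2 change between the pair was 0.83 in RAS/shDOT1L against RAS (0.64 with the GC offset), -0.62 in DOT1L OE against control (-0.59), and -0.26 in RAS against control (-0.01), the last being near 0 with the offset. In RAS/shDOT1L against control, where COL4A1 was called higher and COL4A2 lower, this difference was 0.57 (0.64 with the GC offset).

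COL4A5 and COL4A6 are the X-linked type IV chains, whose trimers include a form found in smooth muscle basement membranes. COL4A5 stood at 34.1, 33.9 and 42 CPM in RAS/shDOT1L, 79.5, 78.6 and 80.3 CPM in RAS, 62.8, 70.4 and 65.7 CPM in DOT1L OE, and 74.8, 71 and 58.9 CPM in control. RAS/shDOT1L was below every other library, and DOT1L OE lay within the control range. It was 2.14-fold lower in RAS/shDOT1L against RAS (-1.10 ± 0.09 SE, edgeR adjusted p = 5.6e-12). It was 1.85-fold lower in RAS/shDOT1L against control (-0.89 ± 0.10 SE, edgeR adjusted p = 1.49e-08). Its rise in RAS over control (0.22, edgeR adjusted p = 0.0144) was lost with the GC offset (0.05), with library size as the only scaling (0.02) and without control replicate 3. COL4A6 stood at 11, 10.8 and 10.5 CPM in RAS/shDOT1L, 25.3, 27.7 and 27.6 CPM in RAS, 36.7, 38 and 33.7 CPM in DOT1L OE, and 18, 18.3 and 21.3 CPM in control. The 4 groups did not overlap, with DOT1L OE highest and RAS/shDOT1L lowest. It was 2.46-fold lower in RAS/shDOT1L against RAS (-1.30 ± 0.15 SE, edgeR adjusted p = 3.54e-09) and, in DOT1L OE, 1.89-fold higher against control (0.92 ± 0.10 SE, edgeR adjusted p = 2.58e-09). Against control, RAS/shDOT1L was 1.78-fold lower (-0.83 ± 0.15 SE, edgeR adjusted p = 2.9e-05). The rise in RAS over control (0.48) was lost with the GC offset (0.21, edgeR adjusted p = 0.156). COL4A4 stood at 0 to 1.82 CPM and COL4A3 at 0 to 0.32 CPM over all libraries, and neither was called, except that COL4A4 in RAS against control was -3.55 without RAS replicate 1 (edgeR adjusted p = 0.0151), and 3.93 in RAS/shDOT1L against RAS without the same library.

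Of the basement membrane genes tested, 4 of 5 rose and 0 fell in RAS against control, 0 of 5 rose and 3 fell in RAS/shDOT1L against RAS, 2 of 4 rose and 0 fell in DOT1L OE against control, and 1 of 5 rose and 3 fell in RAS/shDOT1L against control. The count of 4 in RAS against control rests on COL4A1, COL4A2, COL4A5 and COL4A6, which all lost their positive call with the GC offset. In the other 3 comparisons the offset gave 1 and 3, 2 and 1, and 1 and 3, and the shares called among all genes were 64%, 52.7%, 59.9% and 55.5%. The endothelial markers summed highest in DOT1L OE and lowest in RAS/shDOT1L, and most of this sum was TEK. TEK, an endothelial receptor, was 0.95 in DOT1L OE against control and -1.36 in RAS/shDOT1L against RAS, both called. VWF, CLDN5 and KDR, all low, averaged 1.25, 2.53 and 0.725 CPM in RAS/shDOT1L, above the 0.344, 0.229 and 0.211 CPM in control. The part of these markers in the basement membrane genes was not tested.

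Type VI collagen is a trimer of different chains, and COL6A1 and COL6A2 lie next to each other on chromosome 21, their starts 116342 bases apart. In RAS, COL6A1 and COL6A2 exceeded control while COL6A3 was lower, and RAS/shDOT1L had less of all 3 than RAS did. The upstream windows of COL6A2 and COL6A3 are printed because these partner chains moved in opposite directions in RAS against control, from 250 bases before to 50 after the start (RefSeq, GRCh38.p14, COL6A2 at chr21:46097862-46098161, plus strand, and COL6A3 at chr2:237414115-237414414, minus strand). Capitals mark GGGCGG on either strand, the core letters of the GC box, which the COL6A2 window holds 4 times and the COL6A3 window does not hold.
COL6A2: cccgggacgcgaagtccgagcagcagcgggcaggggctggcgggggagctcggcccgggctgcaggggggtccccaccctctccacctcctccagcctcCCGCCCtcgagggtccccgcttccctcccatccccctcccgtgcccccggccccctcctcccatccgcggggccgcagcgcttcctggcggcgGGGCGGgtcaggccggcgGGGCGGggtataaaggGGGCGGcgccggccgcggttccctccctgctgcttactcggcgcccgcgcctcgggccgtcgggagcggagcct
COL6A3: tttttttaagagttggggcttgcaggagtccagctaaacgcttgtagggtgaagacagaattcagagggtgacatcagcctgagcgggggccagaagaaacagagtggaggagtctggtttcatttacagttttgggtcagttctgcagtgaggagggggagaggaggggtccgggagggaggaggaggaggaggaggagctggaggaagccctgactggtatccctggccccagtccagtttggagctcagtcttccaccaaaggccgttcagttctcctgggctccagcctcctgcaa
The GC content of these windows was 79.3% and 56.3%, and a match is a description of letters only.

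COL6A1 (ENSG00000142156, chromosome 21, 45981770 to 46005050, plus strand) stood at 2508, 2606 and 2581 CPM in RAS/shDOT1L, 5019, 5261 and 5179 CPM in RAS, 1941, 1996 and 1958 CPM in DOT1L OE, and 1689, 1645 and 1664 CPM in control. The groups did not overlap, with RAS highest, RAS/shDOT1L next and control lowest. COL6A1 was 3.09-fold higher in RAS against control (1.63 ± 0.03 SE, edgeR adjusted p = 1.07e-32, and 1.04 with the GC offset), and 1.98-fold lower in RAS/shDOT1L against RAS (-0.99 ± 0.03 SE, edgeR adjusted p = 2.38e-23, and -0.55 with the GC offset). It was 1.55-fold higher in RAS/shDOT1L (0.63 ± 0.03 SE, edgeR adjusted p = 1.04e-15) and, in DOT1L OE, 1.18-fold higher against control (0.24 ± 0.03 SE, edgeR adjusted p = 9.96e-08).

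COL6A2 (ENSG00000142173, chromosome 21, 46098112 to 46132848, plus strand) stood at 2282, 2427 and 2413 CPM in RAS/shDOT1L, 6330, 6499 and 6428 CPM in RAS, 2317, 2469 and 2421 CPM in DOT1L OE, and 1747, 1803 and 1730 CPM in control. RAS stood alone, far above every other library, and RAS/shDOT1L overlapped DOT1L OE. COL6A2 was 3.64-fold higher in RAS against control (1.87 ± 0.02 SE, edgeR adjusted p = 8.26e-35, and 1.23 with the GC offset), and 2.67-fold lower in RAS/shDOT1L against RAS (-1.42 ± 0.03 SE, edgeR adjusted p = 1.48e-27, and -0.96 with the GC offset). Against control it was 1.35-fold higher in RAS/shDOT1L (0.44 ± 0.03 SE, edgeR adjusted p = 9.87e-12) and, in DOT1L OE, 1.37-fold higher (0.45 ± 0.03 SE, edgeR adjusted p = 2.22e-13).

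COL6A3 (ENSG00000163359, chromosome 2, 237324003 to 237414328, minus strand), the largest of the common chains, stood at 1243, 1365 and 1449 CPM in RAS/shDOT1L, 2210, 2224 and 2153 CPM in RAS, 3333, 3426 and 3080 CPM in DOT1L OE, and 2755, 2813 and 2747 CPM in control. DOT1L OE was highest, then control, RAS and RAS/shDOT1L, with no overlap. COL6A3 was 1.26-fold lower in RAS against control (-0.34 ± 0.03 SE, edgeR adjusted p = 2.17e-13), lower by 1.6-fold in RAS/shDOT1L against RAS (-0.68 ± 0.04 SE, edgeR adjusted p = 1.57e-15) and 2.04-fold lower in RAS/shDOT1L against control (-1.03 ± 0.04 SE, edgeR adjusted p = 2.2e-18). In DOT1L OE it exceeded control by 1.19-fold (0.25 ± 0.03 SE, edgeR adjusted p = 1.18e-07). COL6A5 had 11 reads, all in 1 RAS/shDOT1L library, and COL6A6 stood at up to 0.06 CPM.

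The ratio of COL6A3 to COL6A1 counts was 0.527 ± 0.0329 in RAS/shDOT1L and 0.426 ± 0.0127 in RAS, against 1.67 ± 0.0831 in DOT1L OE and 1.66 ± 0.0407 in control (SD, n = 3 each). The log2 difference between these 2 chains was -1.96 in RAS against control and -1.59 with the GC offset, so the pair still moved apart. In RAS/shDOT1L against control this difference was -1.66, and -1.55 with the GC offset. The COL6A1 to COL6A2 ratio ranged less, at 1.08 ± 0.0157, 0.803 ± 0.0087, 0.818 ± 0.0168 and 0.947 ± 0.0297 in the order RAS/shDOT1L, RAS, DOT1L OE and control. The COL1A1 to COL1A2 ratio was 2.68 ± 0.071 in RAS/shDOT1L, 1.93 ± 0.0276 in RAS, 2.48 ± 0.0503 in DOT1L OE and 1.54 ± 0.0305 in control. Its log2 difference was 0.69 in DOT1L OE against control (0.66 with the GC offset), 0.47 in RAS/shDOT1L against RAS (0.66), but 0.33 in RAS against control, where the offset left 0.05. In RAS/shDOT1L against control this difference was 0.8 (0.72 with the GC offset).

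**Figure D4:**
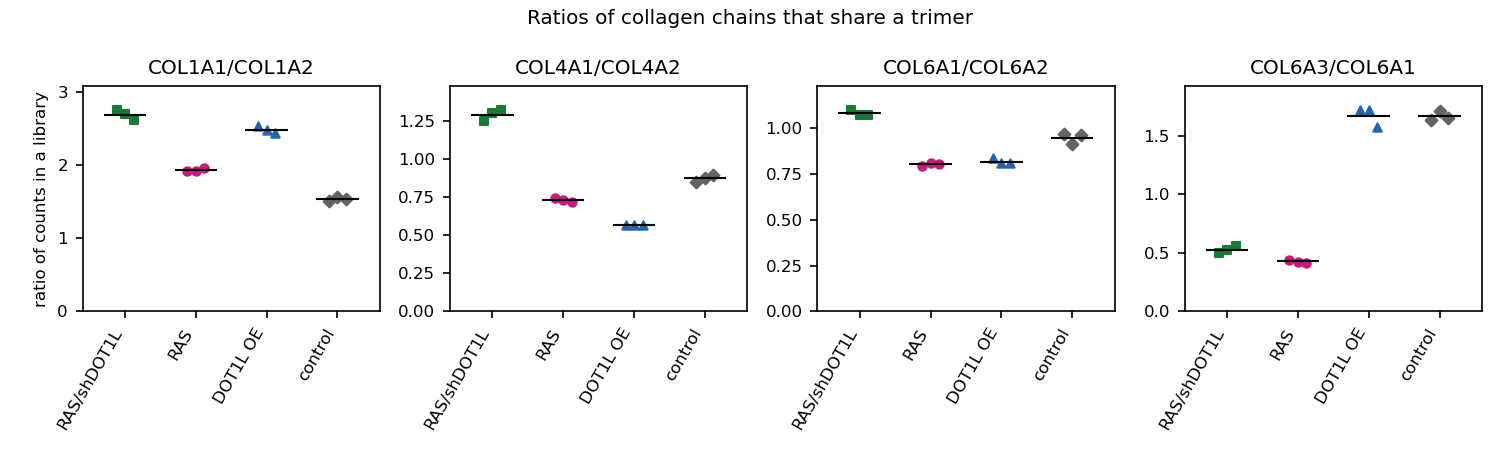
Ratio of counts between paired collagen chains within a library (COL1A1 to COL1A2, COL4A1 to COL4A2, COL6A1 to COL6A2, COL6A3 to COL6A1), 1 point per library, in the order RAS/shDOT1L, RAS, DOT1L OE, control. The COL6A3 to COL6A1 ratio lies at 0.527 and 0.426 in the groups with HRAS against 1.67 and 1.66 in the others.

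Among the FACIT genes, COL12A1 carried most counts and was lower in all groups than in control. COL12A1 (ENSG00000111799, chromosome 6, 75084326 to 75206267, minus strand), a chain that binds the surface of type I fibrils, stood at 379, 425 and 466 CPM in RAS/shDOT1L, 768, 729 and 725 CPM in RAS, 1283, 1217 and 1111 CPM in DOT1L OE, and 1485, 1564 and 1463 CPM in control. The 4 groups did not overlap, with control highest and RAS/shDOT1L lowest. It was 2.03-fold lower in RAS against control (-1.02 ± 0.03 SE, edgeR adjusted p = 3.49e-23), lower by 1.73-fold in RAS/shDOT1L against RAS (-0.79 ± 0.05 SE, edgeR adjusted p = 2.65e-14) and 1.25-fold lower in DOT1L OE against control (-0.32 ± 0.04 SE, edgeR adjusted p = 4.59e-08). RAS/shDOT1L was 3.54-fold below control (-1.82 ± 0.05 SE, edgeR adjusted p = 1.11e-21). COL14A1, its relative on the fibril surface, stood at 3.59, 5.21 and 3.97 CPM in RAS/shDOT1L, 5.24, 5.39 and 4.4 CPM in RAS, 9.38, 6.82 and 7.34 CPM in DOT1L OE, and 2.53, 2.15 and 2.76 CPM in control. DOT1L OE was highest and control lowest, and RAS/shDOT1L overlapped RAS. It was 3.15-fold higher in DOT1L OE (1.66 ± 0.23 SE, edgeR adjusted p = 1.35e-07) and 2.01-fold higher in RAS (1.01 ± 0.31 SE, edgeR adjusted p = 0.00477) against control. Its call in RAS/shDOT1L against control (0.78, edgeR adjusted p = 0.0476) was lost when RAS/shDOT1L replicate 2 or 3 or any of the controls was left out, with library size as the only scaling, without the filter and with the replicate block.

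COL9A2, a chain of type IX collagen that coats type II fibrils in cartilage, stood at 9, 8.9 and 9.02 CPM in RAS/shDOT1L, 5.3, 3.45 and 4.28 CPM in RAS, 10.1, 11.5 and 8.42 CPM in DOT1L OE, and 11.9, 7.49 and 13.5 CPM in control. RAS was lowest with no overlap with any other group. It was 2.52-fold lower in RAS against control (-1.33 ± 0.23 SE, edgeR adjusted p = 7.89e-06, and -1.96 with the GC offset) and 2.09-fold higher in RAS/shDOT1L against RAS (1.06 ± 0.25 SE, edgeR adjusted p = 0.000458, and 1.51 with the GC offset). COL9A3, another type IX chain, had 9, 0 and 0 counts in RAS/shDOT1L, 3, 11 and 1 counts in RAS, 10, 16 and 13 counts in DOT1L OE, and 1, 0 and 0 counts in control. DOT1L OE had counts in all 3 libraries and control in 1, and the ratio of totals was 36.6 with a counting interval of 6.2 to 1480 (exact, covering counting error only). It passed the filter through DOT1L OE, and had too few counts to be tested elsewhere. COL16A1, a FACIT chain of skin and muscle, stood at 37.7, 40.8 and 37 CPM in RAS/shDOT1L, 33.4, 36.8 and 37.3 CPM in RAS, 47.8, 48.8 and 51.1 CPM in DOT1L OE, and 40.9, 42.2 and 38.9 CPM in control. DOT1L OE was highest (0.28 ± 0.08 SE, edgeR adjusted p = 0.00278 against control), RAS lay below control without overlap (-0.18, edgeR adjusted p = 0.0949, but -0.38 and called with library size as the only scaling), and RAS/shDOT1L overlapped both. With the GC offset it was called in the other 3 comparisons (-0.75, 0.52 and -0.24 in RAS against control, RAS/shDOT1L against RAS and RAS/shDOT1L against control).

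COL19A1, a rare FACIT chain, had 4, 6 and 1 counts in RAS/shDOT1L, 27, 35 and 18 counts in RAS, 6, 0 and 0 counts in DOT1L OE, and 0, 1 and 0 counts in control. RAS had counts in every library, 80 against 1 in control over the group, a ratio of 94.5 with an exact counting interval of 16.5 to 3780. RAS/shDOT1L had 11 against the 80 in RAS, a ratio of 0.143 with a counting interval of 0.0686 to 0.269. It passed the filter through RAS alone and so had to differ in both comparisons, and the ratios are a description. Leaving out COL19A1 and COL9A3, of 4 FACIT genes tested 1 rose and 2 fell in RAS against control, 1 rose and 1 fell in RAS/shDOT1L against RAS, 2 rose and 1 fell in DOT1L OE against control, and 1 rose and 1 fell in RAS/shDOT1L against control, beside 64%, 52.7%, 59.9% and 55.5% of all genes called. COL20A1, COL21A1 and COL22A1 stood at 0.33 CPM or less in every library.

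COL7A1 forms the anchoring fibrils under the epidermis. COL7A1 (ENSG00000114270, chromosome 3, 48564073 to 48595329, minus strand) stood at 148, 176 and 171 CPM in RAS/shDOT1L, 149, 172 and 163 CPM in RAS, 96.9, 111 and 112 CPM in DOT1L OE, and 27.4, 21.2 and 27.6 CPM in control. All libraries of the 3 other groups lay above all control libraries, and RAS/shDOT1L overlapped RAS. It was 6.33-fold higher in RAS (2.66 ± 0.08 SE, edgeR adjusted p = 9.64e-24), 6.51-fold higher in RAS/shDOT1L (2.70 ± 0.09 SE, edgeR adjusted p = 3.4e-20) and, in DOT1L OE, 4.21-fold higher (2.07 ± 0.09 SE, edgeR adjusted p = 9.81e-20) against control. Between RAS/shDOT1L and RAS it was 0.05 ± 0.07 SE, edgeR adjusted p = 0.552, and 0.50 and called with the GC offset, which also took the RAS value to 2.05. Its upstream window (RefSeq, GRCh38.p14, chr3:48595280-48595579, minus strand) is printed as that of the member with the largest called rise among those at over 100 CPM. Capitals mark its 3 GGGCGG on either strand.
COL7A1: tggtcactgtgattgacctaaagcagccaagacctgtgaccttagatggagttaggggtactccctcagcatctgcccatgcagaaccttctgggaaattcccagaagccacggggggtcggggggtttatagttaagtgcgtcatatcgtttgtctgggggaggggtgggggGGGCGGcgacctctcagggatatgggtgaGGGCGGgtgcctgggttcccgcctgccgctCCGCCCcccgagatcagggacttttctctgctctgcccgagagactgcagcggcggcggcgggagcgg
In the 44 windows of members, CCAAT occurs in 14 (34.6% of all windows), TATAAA in 8 (11.5%) and TGANTCA in 1, that of COL10A1 (7.71%), each on either strand.

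COL18A1 (ENSG00000182871, chromosome 21, 45405165 to 45513720, plus strand), a multiplexin of basement membranes whose C-terminal piece is endostatin, stood at 62.3, 63.8 and 62.9 CPM in RAS/shDOT1L, 192, 203 and 202 CPM in RAS, 201, 210 and 200 CPM in DOT1L OE, and 122, 112 and 105 CPM in control. RAS and DOT1L OE overlapped at the top, and RAS/shDOT1L lay below control. COL18A1 was 3.12-fold lower in RAS/shDOT1L against RAS (-1.64 ± 0.07 SE, edgeR adjusted p = 1.73e-20, and -1.18 with the GC offset) and 1.79-fold lower against control (-0.84 ± 0.07 SE, edgeR adjusted p = 5.95e-11). It was 1.76-fold higher in RAS against control (0.81 ± 0.06 SE, edgeR adjusted p = 3.08e-14), where the GC offset left 0.18, and exceeded control by 1.81-fold in DOT1L OE (0.86 ± 0.06 SE, edgeR adjusted p = 1.13e-14). Of its exon bases 18.5% also lie in exons of SLC19A1 on the opposite strand, and the strand setting of the counts is not stated, so a share of these reads cannot be told apart. SLC19A1 stood at 9.32 to 16.5 CPM in RAS/shDOT1L, 16.8 to 23.1 in RAS, 18.6 to 19.7 in DOT1L OE and 10.4 to 11.9 in control. COL15A1, the other multiplexin, stood at 1.7, 1.5 and 1.45 CPM in RAS/shDOT1L, 0.894, 1.51 and 0.255 CPM in RAS, 14.2, 17.7 and 18.3 CPM in DOT1L OE, and 4.08, 3.72 and 4.88 CPM in control. DOT1L OE was highest with no overlap, and control lay above both groups with HRAS. It was 3.98-fold higher in DOT1L OE (1.99 ± 0.17 SE, edgeR adjusted p = 3.7e-12) and 2.71-fold lower in RAS/shDOT1L (-1.44 ± 0.36 SE, edgeR adjusted p = 0.00127) against control. The fitted value in RAS against control was -2.23 ± 0.45 SE, and -2.85 without RAS replicate 2. There COL15A1 passed the filter through control, so these 2 values are a description.

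COL8A1, a short network-forming chain of vessel walls and the cornea, stood at 45.8, 45.5 and 52.4 CPM in RAS/shDOT1L, 56.1, 61.3 and 70 CPM in RAS, 33.9, 34.7 and 31.9 CPM in DOT1L OE, and 87.8, 87.2 and 85.7 CPM in control. Control was highest and DOT1L OE lowest, without overlap between any groups. It was 2.59-fold lower in DOT1L OE (-1.37 ± 0.07 SE, edgeR adjusted p = 4.12e-17) and 1.39-fold lower in RAS (-0.48 ± 0.08 SE, edgeR adjusted p = 1.55e-06) against control, and 1.29-fold lower in RAS/shDOT1L against RAS (-0.36 ± 0.10 SE, edgeR adjusted p = 0.00168). Against control, RAS/shDOT1L was 1.81-fold lower (-0.85 ± 0.08 SE, edgeR adjusted p = 2.84e-10). COL8A2 stood at 0.75 to 2.30 CPM over all libraries with no call.

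COL10A1, the chain of hypertrophic cartilage, had 19, 19 and 7 counts in RAS/shDOT1L, 143, 101 and 113 counts in RAS, 0, 0 and 7 counts in DOT1L OE, and 0, 8 and 0 counts in control. RAS lay far above every other library, and in control all 8 counts came from replicate 2. RAS had 357 counts against these 8, a ratio of 52.7 with an exact counting interval of 26.5 to 123. RAS/shDOT1L had 45 against the 357 in RAS, a ratio of 0.131 with an interval of 0.0938 to 0.179. Like COL19A1, it passed the filter through RAS, so these ratios are a description too, and the first rests on control replicate 2. Of the cartilage markers, ACAN, COMP and COL2A1 had no count in RAS or in control. The summed cartilage level was 44.5 to 48.4 CPM in RAS against 69.5 to 76.1 CPM in control. Most of it was SOX9, with means of 43.7 and 66.2 CPM, while HAPLN1 went the other way at 0.325 and 0.171 CPM. The part of these markers in COL10A1 was not tested.

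The transmembrane chains stood lower. COL13A1, found at adhesion sites, stood at 37.4, 41.5 and 34.8 CPM in RAS/shDOT1L, 30.7, 37.7 and 42.5 CPM in RAS, 28.6, 33.4 and 34.8 CPM in DOT1L OE, and 31.1, 28.3 and 34.8 CPM in control. All groups overlapped, and its call in RAS/shDOT1L against control (0.28, edgeR adjusted p = 0.0316) was lost with the GC offset (0.11), with library size as the only scaling, without the filter and without RAS/shDOT1L replicate 2 or control replicate 1 or 2. The GC offset brought a call of 0.33 in RAS/shDOT1L against RAS. In RAS against control COL13A1 was 0.23 and not called (edgeR adjusted p = 0.0733), and -0.22 with the GC offset (edgeR adjusted p = 0.0961). It was called there with DESeq2 size factors (0.255) and without RAS replicate 1 (0.35) or control replicate 3 (0.31). COL17A1, the hemidesmosome chain of epithelia, stood at 2.09, 2.82 and 2.52 CPM in RAS/shDOT1L, 1.37, 2.12 and 1.28 CPM in RAS, 0.373, 0.607 and 0.655 CPM in DOT1L OE, and 0.619, 0.269 and 0.201 CPM in control. Both groups with HRAS lay above DOT1L OE and control, and no library reached 3 CPM. The fitted log2 values against control were 2.75 ± 0.62 SE in RAS/shDOT1L and 2.11 ± 0.68 SE in RAS, and 3.36 and 2.72 without control replicate 1. The ratios of total counts were 6.84 (counting interval 4.27 to 11.5) and 4.39 (2.68 to 7.48). In both comparisons COL17A1 passed the filter through the group with HRAS, so these values are a description. COL25A1, a chain known from neurons, stood at 0.717, 2.76 and 2.96 CPM in RAS/shDOT1L, 0.894, 0.182 and 0 CPM in RAS, 0.107, 0.14 and 0.0468 CPM in DOT1L OE, and 0.671, 0.701 and 0.402 CPM in control. RAS/shDOT1L replicates 2 and 3 were high and replicate 1 was not, so the groups overlapped in RAS/shDOT1L against RAS. The fitted value there was 2.56 ± 0.80 SE, and 4.44 without RAS replicate 1. Without RAS/shDOT1L replicate 3 it was 2.26 and no longer called. Against control it was 1.86 ± 0.62 SE. That call was lost without RAS/shDOT1L replicate 2 (1.64) or 3 (1.55) or control replicate 3 (1.64). In both comparisons COL25A1 passed the filter through RAS/shDOT1L, so these values are a description. COL23A1, COL26A1 and COL28A1 stood at 0.72 CPM or less in every library, with 11 reads of COL26A1 in 1 control library. Leaving out the genes that reached the count minimum in 1 group alone, of these genes of other forms 2 of 6 tested rose and 1 fell in RAS against control, 0 of 6 rose and 2 fell in RAS/shDOT1L against RAS (2 and 2 with the GC offset), 3 of 7 rose and 1 fell in DOT1L OE against control, and 2 of 6 rose and 3 fell in RAS/shDOT1L against control (1 and 3 with it), beside 64%, 52.7%, 59.9% and 55.5% of all genes called.

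**Figure D5:**
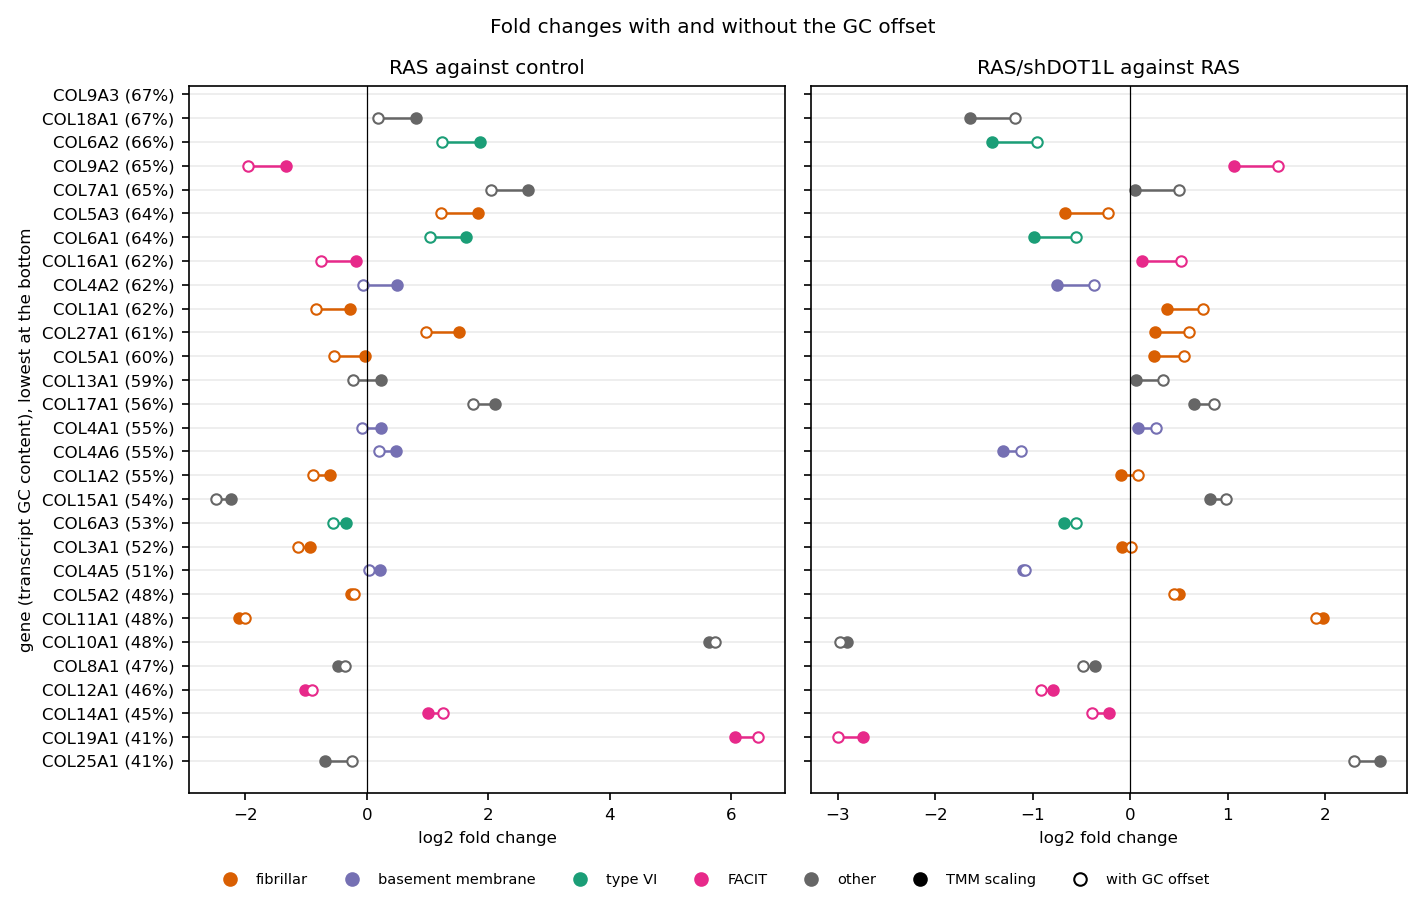
Log2 fold change in RAS against control (left) and RAS/shDOT1L against RAS (right) with TMM scaling (filled) and with the GC offset (open), with genes sorted by the GC content of their transcript, highest at the top. COL6A2 lies at 1.23 with the offset and 1.87 without it in RAS against control.

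The genes that make, cut, crosslink, bind and degrade collagen give its setting. The counts of called genes below stand beside 64% of all genes called in RAS against control (31.9% higher and 32% lower), 52.7% in RAS/shDOT1L against RAS (26.3% and 26.4%) and 59.9% in DOT1L OE against control (29.9% each way). Of 23 tested genes for prolyl and lysyl hydroxylation, folding and export, 10 rose and 9 fell in RAS against control (median log2 change 0.071, against -0.043 over all genes). In RAS/shDOT1L against RAS 10 rose and 8 fell (0.082, against 0.028). With the GC offset these counts were 9 and 7, and 7 and 8, where 53.2% and 46.6% of all genes were called. The values of single genes in what follows are log2 fold changes that passed the edgeR test. P4HA2, a subunit of prolyl 4-hydroxylase, was 1.29 in RAS against control and 1.43 in RAS/shDOT1L against control. PLOD1, a lysyl hydroxylase, was 0.91 in RAS against control and -0.86 in RAS/shDOT1L against RAS. Of 5 procollagen processing genes tested, 4 rose and 0 fell in RAS against control (median 0.859). With the GC offset 3 rose and 1 fell there (median 0.3). In RAS/shDOT1L against RAS 0 rose and 3 fell, where the GC offset gave 1 and 1. BMP1, the C-propeptidase, was 0.68 and PCOLCE, its enhancer, 0.86 in RAS against control, and 0.17 and 0.30 with the GC offset.

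Of 5 crosslinking enzymes, 0 rose and 4 fell in RAS against control (median -0.567), 3 rose and 1 fell in RAS/shDOT1L against RAS (0.52), and 1 rose and 4 fell in DOT1L OE against control (-0.838, against 0.006 over all genes). LOX, the lysyl oxidase that starts crosslinks, averaged 618 CPM in RAS/shDOT1L, 203 CPM in RAS, 400 CPM in DOT1L OE and 779 CPM in control. It was -1.94 in RAS against control and 1.62 in RAS/shDOT1L against RAS. LOXL4 was -0.57 and 1.35 in the same comparisons.

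Of 7 collagen-degrading enzymes tested, 6 rose and 1 fell in RAS against control (median 1.445), 0 rose and 6 fell in RAS/shDOT1L against RAS (-0.889), and 4 rose and 3 fell in DOT1L OE against control (0.144). MMP1, the interstitial collagenase, was 6.17 in RAS against control, -2.28 in RAS/shDOT1L against RAS and 2.56 in DOT1L OE against control. MMP14, the membrane-bound collagenase, was 2.56, -1.80 and 1.39, and CTSK, cathepsin K, was 2.29, -1.10 and -0.56 in the same comparisons. Of 12 receptor genes tested, 7 rose and 3 fell in RAS against control and 2 rose and 6 fell in RAS/shDOT1L against RAS. ITGA11, a collagen-binding integrin of fibroblasts, was 1.39 and -0.88, and MRC2, which takes up cleaved collagen, 1.36 and -1.23 in these comparisons, where the GC offset left 0.77 and -0.79. DDR2, a collagen-sensing kinase, was -0.97 in RAS against control.

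Of 15 fibril-associated and basement membrane partners tested, 3 rose and 12 fell in RAS against control (median -0.527), 1 rose and 8 fell in RAS/shDOT1L against RAS, and 7 rose and 7 fell in DOT1L OE against control, with PRELP, which reached the count minimum in all libraries of control alone, among those that fell in both RAS and DOT1L OE. SPARC, a collagen-binding protein of the matrix, was -0.95 in RAS against control and -1.49 in DOT1L OE against control, and DCN, decorin, was -1.24 in RAS against control, with -0.68 left by the GC offset. Of 18 regulators of collagen genes tested, 3 rose and 12 fell in RAS against control (median -0.374) and 11 rose and 4 fell in DOT1L OE against control (0.403). TGFB3, which fell in RAS, reached the count minimum in all libraries of control alone. Of 17 tested in RAS/shDOT1L against RAS, 7 were higher and 3 lower, and 5 and 4 with the GC offset. TGFB1 was 1.40 in RAS and 1.72 in DOT1L OE, and SMAD7, an inhibitor of its signalling, 1.71 and 2.65, each against control, while TGFB2 was -1.51 and -1.19. The GC offset left 0.81 for TGFB1 in RAS against control.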

How the data were processed

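The authors aligned poly(A) RNA reads of the 12 libraries to GRCh38 and counted them per gene with STAR, and the deposited counts are whole numbers without normalization. Releases named in the submitters' processing notes (STAR 2.6.1, DESeq2 2) differ from those in the methods, and the strand setting is not given in the sources used here. For HRAS and DOT1L, reads of the introduced cDNA and of the genomic gene are both counted. Totals were 16128055 to 19503457 counts a library. Pairs of libraries within a group differed beyond counting noise (chi-square over its degrees of freedom 4.33 to 7.87). Legends of the study call replicates technical and its methods call them biological, so the p-values may reflect technical spread only.

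The 6 libraries of a comparison were fitted together in edgeR 4.0.16 in R 4.3.3 (filterByExpr, TMM, two-sided quasi-likelihood F test), called at a Benjamini-Hochberg adjusted p under 0.05 over all genes, and glmTreat was used for 1.5-fold. CPM used TMM-scaled sizes, and TPM the canonical transcript of GENCODE 44. The GC offset removes each library's trend of log2 CPM across 20 GC bins of the transcripts. Every library's value is given for members at 10 CPM or more in a group or called with an absolute log2 change over 1, and each pathway list names up to 4 genes. Members, lists, tests and alternatives were chosen with earlier results of these data known. Alternatives were DESeq2 1.42.0 (size factors, Wald test), library size only, other filters, limma-voom (limma 3.58.1), 1 fit over 4 groups, a replicate block and each library left out. Promoter windows came from RefSeq, and 12 members had none there.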

Additional observations from a re-analysis of the deposited data

How the results depend on the processing

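Counts of called genes stayed within 1.5 times the main count under every alternative run: 23 to 26 in RAS against control, 18 to 22 in RAS/shDOT1L against RAS, 19 to 21 in DOT1L OE against control and 19 to 24 in RAS/shDOT1L against control, and 13 to 15, 9 to 13, 11 to 13 and 11 to 14 for changes over 1.5-fold. Direction turned for COL4A1 (-0.072, edgeR adjusted p = 0.044) and COL4A2 (-0.066, edgeR adjusted p = 0.0803) in RAS against control and COL1A2 (0.082, edgeR adjusted p = 0.0597) in RAS/shDOT1L against RAS, all with the GC offset, and for COL1A1 in RAS/shDOT1L against control with library size only (-0.029, edgeR adjusted p = 0.343) and with the GC offset (-0.077, edgeR adjusted p = 0.00813). By construction the GC offset removes a trend, and the cause of the trend was not tested. As shares of the TMM-scaled library size, all collagen genes held 3.12% in RAS, 2.52% in DOT1L OE and 2.78% in control, fibrillar 1.33%, 1.31% and 1.76%, basement membrane 0.288%, 0.275% and 0.222%, type VI 1.38%, 0.765% and 0.62%, and FACIT 0.0788%, 0.127% and 0.156%, and the other genes 0.0472% in RAS and 0.0395% in DOT1L OE. Same-numbered libraries did not deviate together (r from -0.019 to 0.027), so the numbers do not pair them. With the replicate block, 24, 20, 20 and 22 genes were called in the 4 comparisons, and COL14A1 lost its call in RAS/shDOT1L against control (0.77, edgeR adjusted p = 0.072). DESeq2 lost COL27A1 in RAS/shDOT1L against RAS (Wald adjusted p = 0.0717). Genes with a few counts, such as COL19A1, COL9A3 and COL25A1, are limited by depth.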
